A study of Mus musculus with 1203 samples.

Results

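The genes described here are 10 genes of colonic mucus and its secreting cell, the goblet cell: Muc2, Zg16, Fcgbp, Clca1, Tff3, Agr2, Spink4, Reg4, Klk1 and Mptx1. They were chosen by name, as 10 of the 46517 mouse gene rows of a single-cell expression table, and all 10 were found. Their values were read in 856 wells, each meant to hold 1 sorted cell of the colon, with at least 1000 genes above 0 TPM, out of 1203 wells in all. TPM is a length-normalised share of a well's RNA, scaled to a fixed total, so levels of different genes can be set side by side within it. Of the 856 wells, 30 held Muc2 at 500 TPM or more, and these are called Muc2-high wells.

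The wells came from female mice 11 weeks old, which either carried VillinCre;IPMKf/f, that is floxed alleles of Ipmk with a Cre driven by the Villin promoter in the intestinal epithelium, or were wt. They were profiled by a modified Smart-seq2, a plate method that copies polyadenylated RNA of 1 cell into full-length cDNA. Each well is labelled as a tuft cell, sorted as EPCAM+/SIGLEC-F+, or as an epithelial cell, with a gate not given in the sources used here. Kept wells numbered 300 with the tuft label and 51 with the epithelial label for VillinCre;IPMKf/f (called IPMKf/f below), and 466 and 39 for wt. The IPMKf/f wells fill 4 plate sets and the wt wells 3, no plate set holds both, and animals are not named. So each genotype counts as 1 sample, genotype and plate set cannot be told apart, no p-values are given, and an SD is the spread between plate sets, which may be technical.

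Goblet cells pack MUC2, a very large glycoprotein, into granules and release it as the gel that keeps bacteria off the colonic surface. The gel carries further secreted proteins that bind to it, cut it or bind bacteria, and its folding needs dedicated enzymes of the endoplasmic reticulum. ATOH1 commits epithelial progenitors to the secretory lineage and SPDEF drives goblet maturation. Tuft cells, the cells this sort was aimed at, are a separate chemosensory lineage that uses the channel TRPM5.

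All 10 genes are protein-coding in the GRCm38 annotation (GENCODE M21). Muc2 lies at chr7:141690340-141754693 and Fcgbp at chr7:28071236-28120862, both on the plus strand. Reg4 lies at chr3:98222156-98236748 and Klk1 at chr7:44225360-44229618, also on the plus strand. The other genes are on the plus strand of chromosomes 12 (Agr2), 4 (Spink4) and 1 (Mptx1), and on the minus strand of chromosomes 7 (Zg16), 3 (Clca1) and 17 (Tff3). RefSeq promoter sequences (GRCm38.p6) were at hand for 6 of the 10 genes. Shown are the 250 bases before the start of 4 of them, all on the plus strand: Muc2, which defines the wells, Fcgbp and Reg4, which follow different patterns within those wells, and Klk1, the member most often seen outside them. Capitals mark CAGNTG on either strand, a form of the E-box that basic helix-loop-helix factors such as ATOH1 can bind.
Muc2, chr7:141690090-141690339: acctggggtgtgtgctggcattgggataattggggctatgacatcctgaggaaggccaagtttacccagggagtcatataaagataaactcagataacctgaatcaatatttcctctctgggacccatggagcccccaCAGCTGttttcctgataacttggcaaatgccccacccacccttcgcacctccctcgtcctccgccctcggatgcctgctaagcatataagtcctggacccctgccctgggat
Fcgbp, chr7:28070986-28071235: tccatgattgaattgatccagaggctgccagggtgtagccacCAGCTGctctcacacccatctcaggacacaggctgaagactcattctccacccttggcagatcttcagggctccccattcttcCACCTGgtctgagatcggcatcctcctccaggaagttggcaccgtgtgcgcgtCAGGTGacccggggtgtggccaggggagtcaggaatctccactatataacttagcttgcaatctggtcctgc
Reg4, chr3:98221906-98222155: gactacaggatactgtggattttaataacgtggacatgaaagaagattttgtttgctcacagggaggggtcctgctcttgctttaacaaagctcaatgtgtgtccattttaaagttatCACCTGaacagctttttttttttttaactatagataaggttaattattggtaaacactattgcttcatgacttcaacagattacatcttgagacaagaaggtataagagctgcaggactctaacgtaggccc
Klk1, chr7:44225110-44225359: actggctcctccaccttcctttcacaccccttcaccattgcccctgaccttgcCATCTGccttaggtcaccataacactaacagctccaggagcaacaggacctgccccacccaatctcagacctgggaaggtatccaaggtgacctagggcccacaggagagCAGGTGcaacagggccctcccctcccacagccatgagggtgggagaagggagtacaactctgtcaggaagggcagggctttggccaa
The motif is present in 5 of the 6 member promoters of this length, once each in Muc2, Reg4 and Mptx1, 2 times in Klk1 and 3 times in Fcgbp, and it is not in the Agr2 window. It is also present in 44.8% of all 32851 promoters of the table. The forkhead motif TGTTTAC, searched on both strands, was in 1 of the 6 (Reg4) and in 3.17% of all promoters. The caudal motif TTTATGG was in 1 of the 6 (Agr2) and in 2.43% of all. No match overlaps one of another motif in the 4 printed sequences, where only the E-box form is in capitals. A match is a description of letters and not a binding site.

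Under the tuft label, Ipmk RNA was not lower in the wells labelled IPMKf/f. It was above 0 in 25.3%, 31.1%, 22.9% and 26.1% of wells in IPMKf/f plate sets 2, 4, 5 and 7, against 27.1%, 23.9% and 30.1% in wt plate sets 1, 3 and 6. Its mean ran from 6.90 to 18.8 TPM in the IPMKf/f plate sets and from 3.22 to 4.31 TPM in the wt ones. Under the epithelial label its mean was 34.2, 1.23, 9.41 and 5.85 TPM in the IPMKf/f plate sets, in the same order. In the wt ones it was 8.26, 1.55 and 3.19 TPM, and the genotypes overlap. A gene-level value also counts RNA outside a deleted exon, so it does not check the deletion, and genotypes are given as labelled. TPM keeps no read depth, and genes above 0 are given in its place, with a median of 3506 in IPMKf/f wells with the epithelial label and 2384 in those with the tuft label, against 2251 and 2746 in the wt wells of the same labels.

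Muc2-high wells were found under both labels. With the epithelial label they were 7 of 51 IPMKf/f wells (13.7%, 95% exact binomial interval 5.70% to 26.3%) and 0 of 39 wt wells (0% to 9.03% by the same interval, and up to 7.69% if 3 wells are taken as the limit for a count of 0). With the tuft label they were 5 of 300 IPMKf/f wells (1.67%, 0.543% to 3.85%) and 18 of 466 wt wells (3.86%, 2.31% to 6.04%). The intervals cover counting error only, since no label says which wells share a mouse. By plate set, the epithelial-label share was 5.26%, 33.3%, 21.4% and 0% in IPMKf/f sets 2, 4, 5 and 7, and 0% in each of the 3 wt sets. The tuft-label share was 1.33%, 0.943%, 3.13% and 0% in the same IPMKf/f sets, against 3.53%, 0.917% and 5.15% in wt sets 1, 3 and 6. The 30 wells lie on 11 of the 15 plates with kept wells, and 14 of the 18 wt ones lie in plate set 6. The count of 0 in wt epithelial wells depends on the filter, since 2 wt wells under it reached the Muc2 level.

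The level of 500 TPM falls in a sparse stretch of Muc2 values. Just inside it were wells at 945.98 and 988.08 TPM, and just outside it wells at 493, 483.62 and 197.01 TPM. No well lay between 50 and 100 TPM, 6 lay between 100 and 500, 44 were above 0 and up to 50, and 776 were at 0. Because Muc2 chose these wells, its level in them is a description.

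The Muc2-high wells carried goblet cell regulators and hardly any tuft cell RNA, also under the tuft label. Of the 23 Muc2-high wells sorted as tuft cells, Atoh1 was above 0 in 21 and Spdef in 19, while Trpm5 was above 0 in 3, the tuft kinase gene Dclk1 in 2 and Siglecf, the gene of the sorting antigen, in 1. Among the 535 other wells with Trpm5 at 50 TPM or more, Dclk1 was above 0 in 99.8%, Siglecf in 86.9%, Spdef in 5.79% and Atoh1 in 0.187%. No Muc2-high well reached 50 TPM of Trpm5. Of 10 tuft markers, 4 were at 0 in all 30 wells and the summed level had a median of 0 TPM, with 1 well at 1458 TPM through Sh2d6. Enteroendocrine markers were at 0 for 7 of 8 genes, with a summed maximum of 10.7 TPM, and immune markers were at 0 for 6 of 7, with a summed maximum of 33.4 TPM. The 10 colonocyte markers summed to at most 575 TPM, with 4 of them at 0, and the 10 stem and progenitor markers to at most 190.2 TPM, with 1 at 0. The wells labelled tuft and Muc2-high thus go against their label, and the tuft-label results below are given with and without them.

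**Figure D1:**
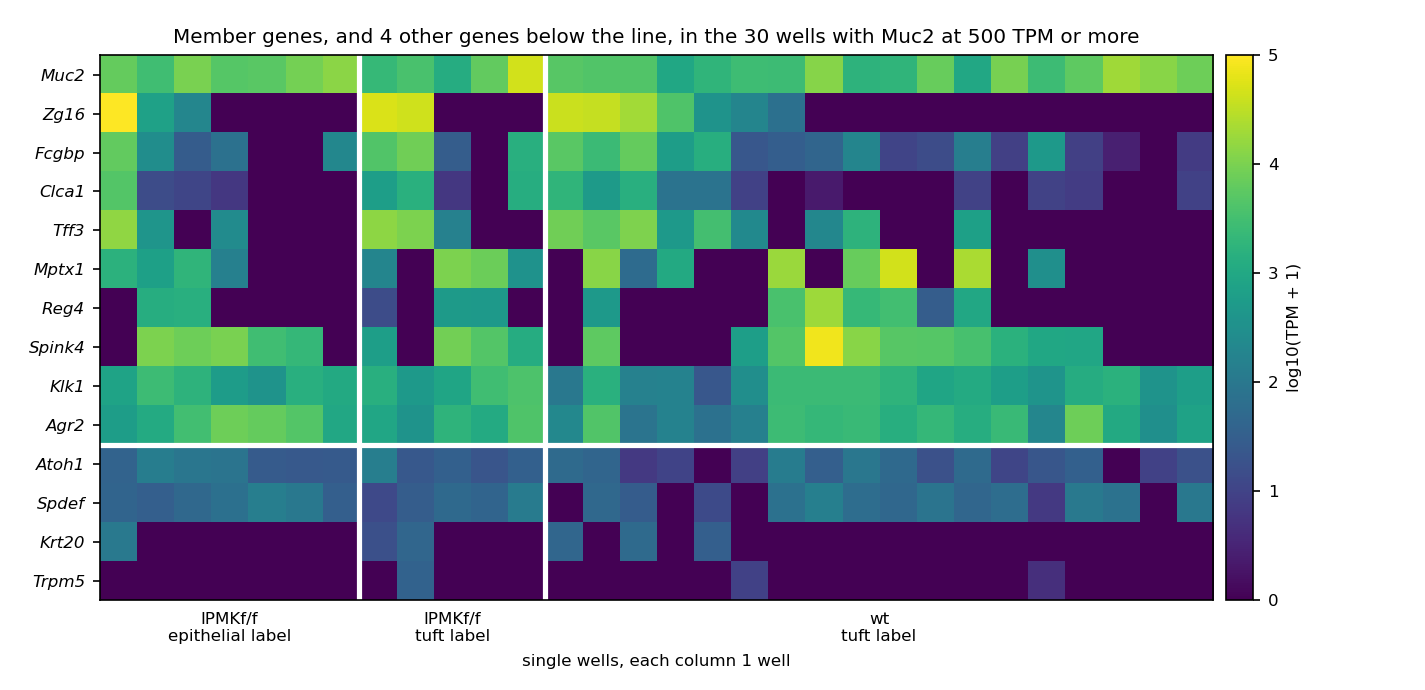
Levels of the 10 member genes, and below the horizontal line of Atoh1, Spdef, Krt20 and Trpm5, as log10(TPM + 1) in each of the 30 Muc2-high wells; columns are wells, grouped as IPMKf/f epithelial (7), IPMKf/f tuft (5) and wt tuft (18), sorted within a group by falling Zg16. Wells with high Zg16, Fcgbp, Clca1 and Tff3 stand at the left of each group, and wells with high Spink4, Reg4 and Mptx1 are mostly other wells.

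Muc2 itself, the gel-forming mucin, had a median of 5005 TPM over the 30 wells. It ranged from 2877 to 13581.5 TPM around a median of 6479 TPM in the 7 IPMKf/f epithelial wells. The 5 IPMKf/f tuft-label wells read 2187, 3689, 1269.7, 6407 and 45105.6 TPM, and the 18 wt tuft-label wells ran from 946 to 19038.3 TPM around a median of 4486 TPM. The ranges of the 3 groups overlap, and the highest single value, 45105.6 TPM, comes from 1 IPMKf/f well. The 10 members together made up 0.434% to 13.7% of the TPM of a Muc2-high well, with a median of 2.34%.

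Zg16, a lectin-like protein that binds bacterial cell walls, was at 0 in most of the 30 wells and led all members in a few. It was above 0 in 12 of them and above 1000 TPM in 7. In the 5 IPMKf/f tuft-label wells it read 51790.1, 43220.4, 0, 0 and 0 TPM. In the 7 IPMKf/f epithelial wells it read 101533, 716, 199 and 4 times 0 TPM, and in the 18 wt tuft-label wells it had a median of 0 and a maximum of 39200.4 TPM. The well at 101533 TPM gave 10.2% of its whole TPM to this gene.

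Fcgbp, a large mucin-binding protein, was above 0 in 26 of 30 wells, with a median of 57.8 and a maximum of 8061 TPM. Clca1, a secreted metalloprotease that acts on the mucus, was above 0 in 19, with a median of 7.40 and a maximum of 4621 TPM. Tff3, the trefoil peptide of goblet cells, was above 0 in 15, with a median of 77.3 and a maximum of 14907.5 TPM. Each of the 3 was highest in a well that also held Zg16.

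Agr2, a disulfide isomerase needed to fold MUC2, was above 0 in all 30 wells, from 72.2 to 7952 TPM with a median of 1220.2 TPM. Its median was 3076 TPM in the IPMKf/f epithelial wells and 1160 TPM in the IPMKf/f tuft-label wells, against 1174 TPM in the wt tuft-label wells, with ranges that overlap. Klk1, tissue kallikrein, a secreted serine protease, was also above 0 in all 30, from 22.1 to 4020.4 TPM with a median of 996 TPM. Spink4, a Kazal-type inhibitor of serine proteases, was above 0 in 20 wells. When present it was never low, with a lowest value of 635 TPM, a median of 4572 TPM and a maximum of 78482.4 TPM over those 20 wells. Reg4, a secreted C-type lectin, was above 0 in 12 wells with a maximum of 18467.3 TPM, and Mptx1, a secreted pentraxin of the mouse gut, was above 0 in 16 wells with a maximum of 45793.2 TPM.

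RSEM, the estimator named in the submitters' processing notes, divides reads among similar transcripts by a model. Of the 50-base stretches in the annotated transcripts of Klk1, 24.0% also occur in transcripts of other genes, most of them in the kallikrein Klk1b5 (15.9%). For Mptx1 17.9% occur in the related gene Mptx2, and for Fcgbp 6.42% occur in other gene models. For the other 7 members no stretch is shared, so the values of Klk1 and Mptx1 are the least certain in identity.

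Within the 30 wells the members fell into 2 patterns of co-variation. Zg16, Fcgbp, Clca1 and Tff3 varied together, with pairwise Spearman correlations between 0.72 and 0.82 over 30 wells. Spink4, Reg4, Klk1, Agr2 and Mptx1 formed the second pattern, with 0.78 for Spink4 and Reg4, 0.67 for Reg4 and Klk1, 0.67 for Agr2 and Spink4, 0.64 for Reg4 and Mptx1, and 0.18 for Agr2 and Mptx1, the loosest pair. Between the patterns, Zg16 and Agr2 had a correlation of -0.45 and Zg16 and Spink4 one of -0.33, but not every such pair was negative. Mptx1 stood at 0.21 to Fcgbp, 0.16 to Tff3 and 0.12 to Zg16, so it was about as close to the first pattern as to Agr2, and Zg16 and Reg4 were at -0.06. Muc2 was placed in neither pattern. It was at -0.52 to Mptx1, -0.49 to Tff3, -0.30 to Zg16 and -0.16 to Spink4, and at 0.26 to Agr2. The wells share libraries, plates and the fixed TPM total, and these values are descriptions without a test.

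The 7 wells with Zg16 at 1000 TPM or more held Zg16 at a median of 39200.4 TPM, Tff3 at 10143.3, Fcgbp at 5189, Clca1 at 1409 and Agr2 at 363 TPM. In the 23 others the medians were 0 TPM for Zg16, 0 for Tff3, 27.3 for Fcgbp, 1.30 for Clca1 and 1771 for Agr2. Zg16 chose the 7 wells, so its own difference follows from that choice. Those of Tff3, Fcgbp and Clca1 restate their correlations with it. Krt20, a keratin of mature surface cells that was not used to choose the wells, was above 0 in 5 of the 7 and in 1 of the 23. Its Spearman correlation with the 4 genes of the first pattern was between 0.68 and 0.74 over the 30 wells. Of the other colonocyte markers, Car1, Slc26a3, Ceacam20 and Slc37a2 were at 0 in all 30 wells. Guca2b was above 0 in 6 of the 30, with a highest value of 265 TPM, and Saa1 in 4, with a highest value of 530 TPM. Aqp8 and Cyp2c55 were each above 0 in 1 well. Car4 was above 0 in 1 well, which was not among the 7. Spdef had a median of 27.1 TPM in the 7 against 60.1 TPM in the 23, and a Spearman correlation of -0.57 with Zg16. Muc2 had a median of 4483 TPM in the 7 and 5853 TPM in the 23.

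The 10 wells with Reg4 at 100 TPM or more all held Spink4, from 3494 to 78482.4 TPM, and 9 of them held Mptx1, at a median over the 10 of 9020.5 TPM. In the 20 others the medians were 318 TPM for Spink4 and 0 TPM for Mptx1. Klk1 had a median of 2174 TPM in the 10 wells and 613 TPM in the 20. Reg4 chose the 10 wells, so the differences of Spink4, Mptx1 and Klk1 restate their correlations with it. Atoh1 was above 0 in all 10 at a median of 51.8 TPM, against 22.0 TPM in the 20, and Krt20 was at 0 in all 10. Atoh1 was also above 0 in all 7 wells with Zg16 at 1000 TPM or more. Its median there was 37.9 TPM, against 26.2 TPM in the 23 without. Only 1 well, a wt one in plate set 3, met both levels, and 14 wells met neither. In those 14, Muc2 had a median of 7465 TPM, Agr2 1595 TPM and Klk1 642 TPM, while Zg16, Tff3, Reg4 and Mptx1 all had a median of 0.

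Wells that met the Zg16 level and wells that met the Reg4 level occurred in both genotypes. Wells with Zg16 at 1000 TPM or more numbered 2 of the 5 IPMKf/f tuft-label, 1 of the 7 IPMKf/f epithelial and 4 of the 18 wt tuft-label Muc2-high wells. Wells with Reg4 at 100 TPM or more numbered 2, 2 and 6 in the same groups. Depth moved with the second pattern. Wells with Reg4 at that level had a median of 4118 genes above 0 against 2517 in the others, and wells with high Zg16 had 2483 against 4110. Across the 30 wells the number of genes correlated with Agr2 at 0.83, with Spink4 at 0.71, with Klk1 at 0.60, with Reg4 at 0.43 and with Zg16 at -0.44 (Spearman). The part of depth in these patterns was not tested.

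Goblet genes that were not members were also compared between the Muc2-high wells and the others. By the ratio of mean TPM + 1, 9 of the 9 members other than Muc2 were at least 10-fold higher in the 30 Muc2-high wells than in the 826 other wells, from 41.4-fold for Klk1 to 2049-fold for Spink4. Over all 2530 genes at 10 TPM or more in either set of wells, 71 were, which is 2.81%, 18% were at least 2-fold higher, and the median ratio was 0.919. A gene low in the other wells enters that set only through the Muc2-high wells, so the lists below are counted over every gene of the list, with no filter on its level, a choice made after seeing the data. Counted that way, 0.325% of all 22479 genes above 0 in a kept well were at least 10-fold higher and 4.14% at least 2-fold. At least 2-fold lower were 2559 of the 22479. Most of these 22479 genes were under 10 TPM in both sets of wells. Of 10 goblet transcription factors, 8 were at least 2-fold higher, and 3 of these at least 10-fold: Atoh1 at 41.3 TPM against 0.0633 TPM, Spdef at 52.8 against 1.55 TPM and Creb3l4, a factor of the endoplasmic reticulum membrane, at 25.1 against 1.49 TPM. Of 27 genes of protein folding and secretion, 4 were at least 10-fold higher, 16 were 2- to 10-fold higher and 0 were 2-fold lower. The 4 were the disulfide isomerases Txndc5 and Pdia5, the mucosal stress sensor Ern2 and the protease Bace2. Of 23 mucin glycosylation genes 1, B3gnt7, was at least 10-fold higher, 17 were 2- to 10-fold higher and 0 were 2-fold lower. Of these 3 lists, 5 factors, 12 folding and secretion genes and 11 glycosylation genes reached 10 TPM in the Muc2-high wells alone, and 2, 8 and 3 reached it in the other wells. These lists were compiled with earlier results of these data known.

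Other secreted or goblet-restricted genes were more mixed, with 12 of 39 at least 10-fold higher, 10 between 2- and 10-fold higher and 8 at least 2-fold lower. Over all 22479 genes, 2559 were at least 2-fold lower. Of the 39, 13 reached 10 TPM in the Muc2-high wells alone, and 11 reached it in the other wells. Sval1 had the largest ratio, 208-fold, with 230 TPM in Muc2-high wells against 0.108 TPM in the others. The chemokine Ccl6 was at 217.6 against 2.09 TPM, Nupr1 at 203 against 3.23 TPM, and the chloride channel gene Best2 at 31.0 against 0.00579 TPM. Retnlb and Ang4, genes of bactericidal proteins, were present in few wells, 5 and 3 of the 30. Tpsg1 was at 46.1 against 0.0726 TPM, Ramp1, a receptor activity-modifying protein gene, at 39.5 against 0.0393 TPM, and Rep15 at 42.1 against 0.173 TPM. The lower genes include Guca2a, the peptide guanylin, at 330.1 against 740 TPM, Dmbt1 at 8.53 against 124 TPM and the membrane mucin Muc3 at 3.75 against 76.3 TPM.

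The signal of 8 of the 10 members was almost entirely carried by the 30 wells. Their share of the summed TPM over the 856 wells was 99.8% for Reg4, 99.2% for Spink4, 99.05% for Muc2, 98.3% for Clca1, 98.1% for Zg16, 98.0% for Mptx1 and 95.5% for both Tff3 and Fcgbp. Agr2, at 85.0%, and Klk1, at 60.9%, had the largest part outside. Muc2 chose the wells, so its share follows from that choice. Over the 9 other members the median share was 98.0%. Among the 826 other wells, 563 held no member, 164 held 1, 71 held 2 and 28 held 3 or more.

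Klk1 was above 0 in 188 of the 826 other wells (22.8%, 19.9% to 25.8%), with a median of 58.5 TPM in them and a maximum of 1563 TPM. Agr2 was above 0 in 81 (9.81%, 7.86% to 12.04%), Muc2 in 50 and Zg16 in 30. Fcgbp was seen in 27 wells, Clca1 in 14, Tff3 in 11, Mptx1 in 10, Spink4 in 3 and Reg4 in 1 well, at 50.4 TPM. The wells with Trpm5 at 50 TPM or more were taken as cells of another type. Whether members read in those wells were expressed by that cell was not tested. There Klk1 was above 0 in 8.04% of 535 wells (5.88% to 10.7%), against 49.8% of the 291 wells under 50 TPM of Trpm5 (43.9% to 55.7%). Agr2 was above 0 in 4.30% against 19.9%, Fcgbp in 0.935% against 7.56%, and Zg16 in 2.80% against 5.15%, where the intervals overlap. Median depth was close in these classes, at 2616 genes above 0 in the wells with Trpm5 and 2724 in those without.

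**Figure D2:**
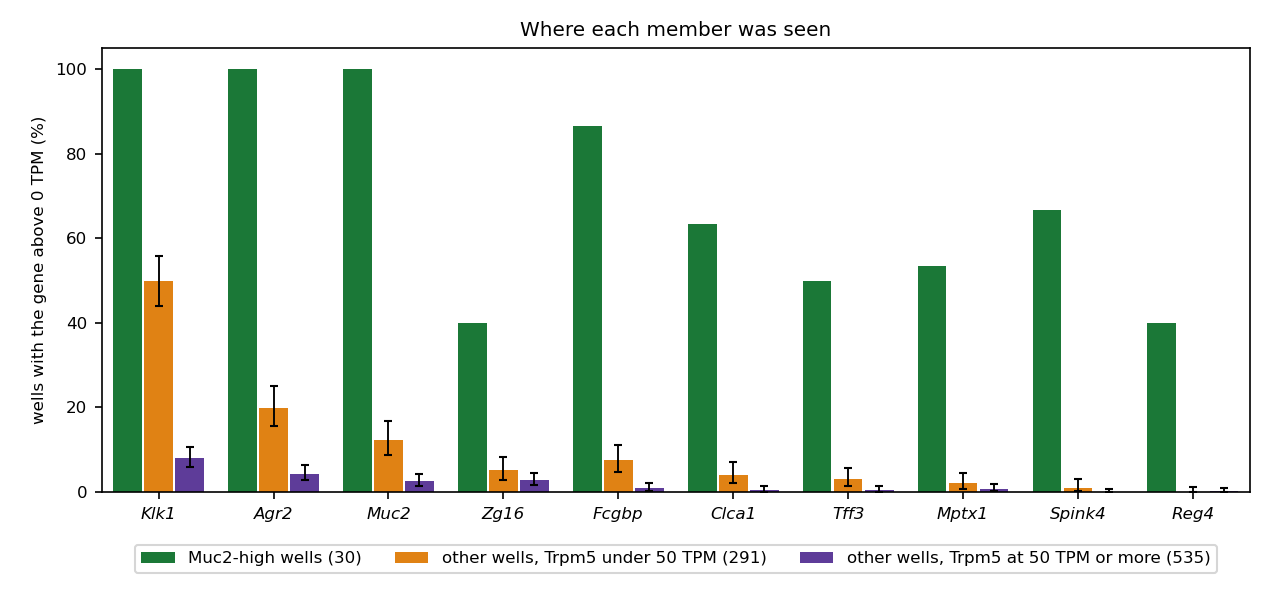
Share of wells with each member above 0 TPM, in percent, in the 30 Muc2-high wells (green), the 291 other wells with Trpm5 under 50 TPM (orange) and the 535 other wells with Trpm5 at 50 TPM or more (purple); error bars are 95% exact binomial intervals and cover counting error only. Klk1 stands at 49.8% in the orange wells and Agr2 at 19.9%, and Muc2 chose the green wells.

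The wells that held Klk1 outside the Muc2-high set held Krt20 more often than those that held Agr2. It was above 0 in 42.0% of the 188 wells with Klk1 (34.9% to 49.4%) and in 14.7% of the 638 without, and Car4, a carbonic anhydrase of surface colonocytes, in 42.0% and 13.0%. Of the 81 wells with Agr2, 14.8% held Krt20 (7.90% to 24.4%), against 21.6% of the 745 without, a share inside that interval. Mki67, a gene of dividing cells, was above 0 in 33.3% of the wells with Agr2 (23.2% to 44.7%) against 5.64% of those without, and in 19.7% of the wells with Klk1 (14.3% to 26.1%) against 5.02% of those without. The intervals for Agr2 and Klk1 wells overlap. Klk1 was also above 0 in 54 of the 81 wells with Agr2. Depth moved with both: the median number of genes above 0 was 3659.5 in wells with Klk1 against 2429.5 without, and 4501 in wells with Agr2 against 2488 without. Its part in these shares was not tested.

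A few wells outside the set held several members. The IPMKf/f tuft-label well nearest to the level, at 493 TPM of Muc2, held 7 members, with Zg16 at 2379 TPM, Mptx1 at 1689 and Fcgbp at 1069 TPM. Another IPMKf/f tuft-label well, at 484 TPM of Muc2, held Agr2 at 3816 TPM, the highest value of that gene outside the set. A wt epithelial well of plate set 3 held Tff3 at 1018, Spink4 at 1014 and Fcgbp at 218 TPM with Muc2 at 0. Zg16 outside the set was above 0 in 9 of 272 wells on the 5 plates that held a Muc2-high well with Zg16 at 1000 TPM or more. On the remaining plates, which include the plate of the well at 2379 TPM, it was above 0 in 21 of 554 wells.

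Between genotypes, the tuft-label means of the members overlapped. By a rule of size (at least 10 TPM in a genotype, at least 1.5-fold, and plate-set means that do not overlap) 0 of 10 members were higher and 0 lower in IPMKf/f, while over all 2277 genes tested 1.93% were higher and 2.2% lower. The median log2 difference of the members, IPMKf/f minus wt on log2(mean TPM + 1), averaged over plate sets, was -1.34, with 8 of 10 negative, beside -0.15 over all genes. It was -0.07 with a filter of 2000 genes per well and -0.03 for means of log2 values. Averaging logs also set some directions, since Fcgbp counts as negative at -1.63 and Mptx1 as positive at 0.43 while their mean TPM, given below, runs the other way. Muc2 averaged 611, 18.1, 129 and 0.207 TPM in IPMKf/f sets 2, 4, 5 and 7, against 305, 42.7 and 272 TPM in wt sets 1, 3 and 6. Zg16 averaged 37.6, 2.35, 993 and 7.50 TPM in the IPMKf/f sets, against 461, 342 and 95.4 TPM in the wt sets. For both genes the highest and the lowest plate-set means were IPMKf/f sets. The highest well held 25.8% of all tuft-label Zg16 and 58.3% of all Spink4. Without the Muc2-high wells the median difference of the members was 1.03 and 1 member, Klk1, met the rule. That comparison keeps wells just under the Muc2 level. A single well of IPMKf/f set 2 held Fcgbp at 1069 and Zg16 at 2379 TPM, and the set then averaged 14.4 and 38.1 TPM. Similarly, a single well of IPMKf/f set 4 held Tff3 at 1061 TPM, and the set averaged 10.1 TPM. The part of such wells in the value of 1.03 was not tested.

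Most other members were also spread widely between plate sets under the tuft label, and Agr2 and Klk1 less so, with an SD on the log2 scale of 0.94 and 0.70, against 3.16 for Muc2 and 2.89 for Zg16. Fcgbp averaged 41.5 ± 60.1 TPM over the IPMKf/f plate sets and 40.0 ± 19.3 TPM over the wt ones, Clca1 10.4 ± 12.1 and 10.9 ± 9.45 TPM, and Tff3 68.4 ± 123 and 69.7 ± 25.7 TPM (SD, n = 4 and 3, here and below). Agr2 averaged 41.4 ± 23.0 TPM in IPMKf/f and 54.4 ± 36.3 TPM in wt. For Spink4, Reg4 and Mptx1 the mean was lower in IPMKf/f, and the wt SD was larger than the wt mean. Spink4 averaged 37.7 ± 36.4 TPM in IPMKf/f and 157 ± 228 TPM in wt, Reg4 2.55 ± 2.95 and 36.5 ± 58.8 TPM, and Mptx1 57.0 ± 38.8 and 157 ± 176 TPM. In each genotype Zg16 had the highest mean of the 10 under this label, at 260.1 ± 489 TPM in IPMKf/f and 299 ± 186 TPM in wt, followed by Muc2 at 189.6 ± 287 TPM and 206 ± 143 TPM. Neighbours in that order did not differ beyond their spread.

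**Figure D3:**
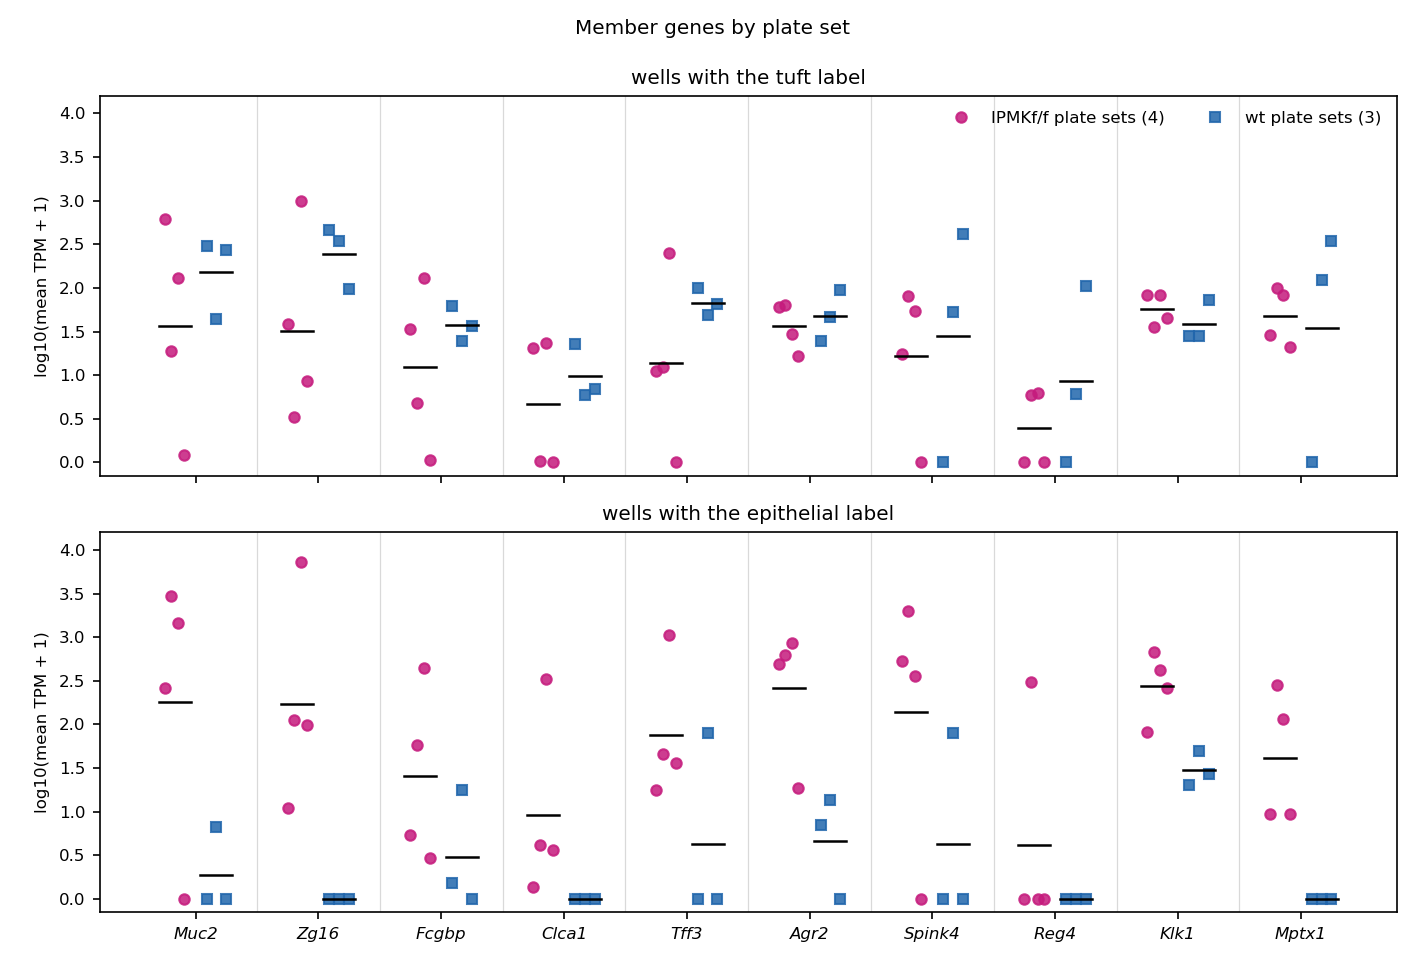
Mean level of each member in a plate set as log10(mean TPM + 1), for IPMKf/f plate sets (circles, left, 4) and wt plate sets (squares, right, 3), with the tuft label above and the epithelial label below; each black line is the mean of the plotted points of a genotype. With the tuft label the points of the genotypes overlap for all 10 genes, and with the epithelial label they do not for Zg16, Clca1, Agr2, Klk1 and Mptx1.

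With the epithelial label 5 of 10 members met the rule as higher in IPMKf/f, namely Zg16, Clca1, Agr2, Klk1 and Mptx1, and 0 as lower. Over all 3393 genes tested 3.24% were higher and 5.84% lower. The median log2 difference of the members was 4.58, beside -0.22 over all genes. This label gave 7 Muc2-high wells in IPMKf/f and 0 in wt, and a single IPMKf/f well of plate set 5 held 98.0% of all epithelial-label Zg16 TPM, 98.7% of Clca1, 88.3% of Fcgbp and 87.9% of Tff3. Agr2 averaged 491, 624, 848 and 17.8 TPM in IPMKf/f sets 2, 4, 5 and 7, against 6.04, 12.5 and 0 TPM in wt sets 1, 3 and 6. In the same IPMKf/f sets Zg16 averaged 10.1, 110.4, 7252 and 97.8 TPM, and it was at 0 TPM in each wt set. Mptx1 averaged 8.37, 280, 114 and 8.49 TPM there and Clca1 0.361, 3.12, 330.1 and 2.66 TPM, again against 0 TPM in each wt set. Plate set 7 held no Muc2-high well, and its Agr2 was the lowest of the IPMKf/f sets. Klk1 averaged 79.9, 677, 419 and 261 TPM in the IPMKf/f sets, against 19.1, 48.9 and 25.9 TPM in wt sets 1, 3 and 6, and its highest well held 15.7% of its sum. Reg4 averaged 304 TPM in IPMKf/f set 4 and 0 TPM in the other 6 sets. The 4 remaining genes overlapped between genotypes: Muc2 averaged 1165 ± 1343 TPM in IPMKf/f and 1.88 ± 3.25 TPM in wt, Spink4 724 ± 882 and 25.997 ± 45.03 TPM, Tff3 291 ± 516 and 26.1 ± 45.2 TPM, and Fcgbp 128 ± 215 and 5.75 ± 9.53 TPM (SD).

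The epithelial wells of the genotypes also differed in how many held the tuft gene Trpm5. Trpm5 was at 50 TPM or more in 0, 1, 0 and 0 of the 19, 9, 14 and 9 wells of IPMKf/f sets 2, 4, 5 and 7, against 1 of 6, 5 of 13 and 12 of 20 wells of wt sets 1, 3 and 6. Without the Muc2-high wells, Agr2 and Klk1 met the rule, beside 2.72% of all genes higher, and the median difference of the members was 0.35. When the wells with Trpm5 at 50 TPM or more were also left out, a choice made after seeing the data, 0 members met it, beside 1.77% of all genes. Agr2 then averaged 81.6, 79.1, 17.7 and 17.8 TPM in the IPMKf/f sets against 7.24, 20.3 and 0 TPM in the wt sets. These overlap, while its log2 difference was 2.80, against 3.03 with the Trpm5 wells. Klk1 averaged 51.8, 123, 302 and 261 TPM in the IPMKf/f sets against 22.9, 69.0 and 64.7 TPM in the wt sets, which overlap, with a log2 difference of 1.66.

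Under the tuft label, Klk1 was the 1 member whose plate-set means fell apart by genotype once the Muc2-high wells were left out. With all tuft-label wells it averaged 81.0, 34.4, 82.2 and 44.8 TPM in IPMKf/f sets 2, 4, 5 and 7, against 27.1, 27.2 and 72.5 TPM in wt sets 1, 3 and 6, which overlap. Without the Muc2-high wells it averaged 27.8, 26.3, 32.6 and 44.8 TPM (32.9 ± 8.39, SD, n = 4) in the IPMKf/f sets, against 14.5, 13.8 and 14.4 TPM (14.2 ± 0.364, SD, n = 3) in the wt sets. The groups did not overlap, the log2 difference was 1.12, and 2.06% of all genes met the rule as higher. When wells with Trpm5 at 50 TPM or more were also left out, it averaged 96.1, 66.7, 95.6 and 82.1 TPM in the IPMKf/f sets against 59.0, 40.7 and 36.4 TPM in the wt sets, a log2 difference of 0.91, beside 3.22% of all genes.

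The share of wells with Klk1 differed less than its mean. Among tuft-label wells that were neither Muc2-high nor at 50 TPM of Trpm5, it was above 0 in 50 of 91 IPMKf/f wells (54.9%, 44.2% to 65.4%) and 62 of 136 wt wells (45.6%, 37.0% to 54.3%), where the intervals overlap. By plate set that share was 61.1%, 51.5%, 62.1% and 36.4% in the IPMKf/f sets against 42.1%, 35.5% and 50% in the wt sets, which overlap too. Krt20, which moved with Klk1 across wells, was above 0 in 57.1% of those IPMKf/f wells (46.3% to 67.5%) and 44.1% of those wt wells (35.6% to 52.9%). Car4 was above 0 in 47.3% (36.7% to 58.0%) and 39.7% (31.4% to 48.4%) of them. The intervals of the genotypes overlap for both genes. In the same wells Krt20 averaged 130 TPM in IPMKf/f and 93.2 TPM in wt, and Car4 265 TPM and 54.2 TPM. The part of colonocyte content in the Klk1 difference was not tested.

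**Figure D4:**
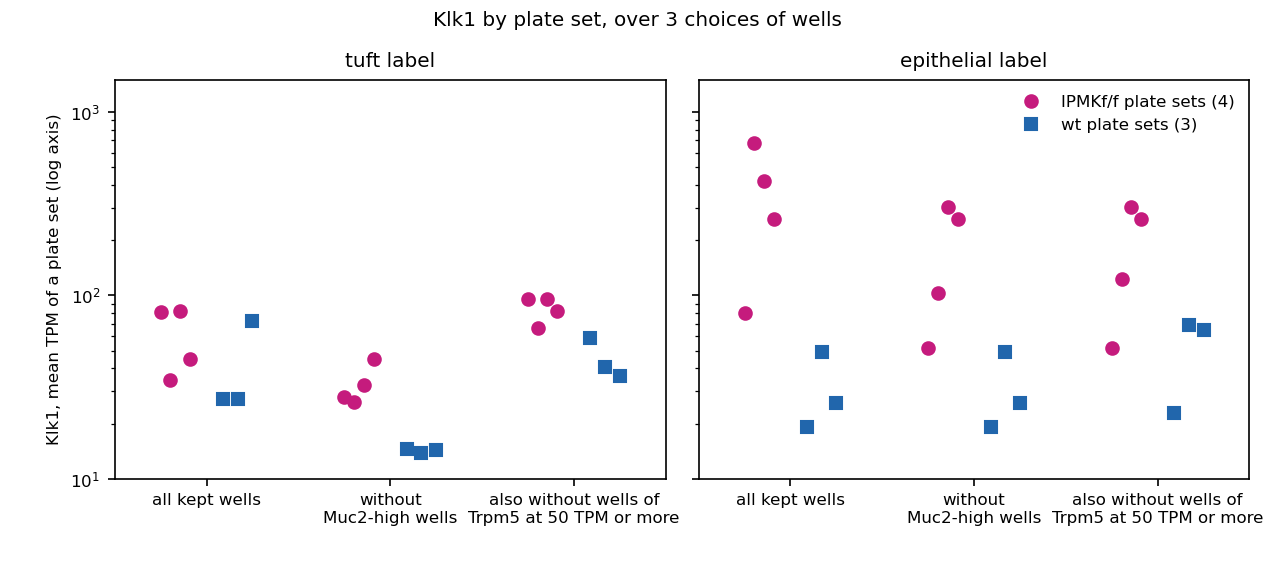
Mean Klk1 level of each plate set in TPM on a log axis, for IPMKf/f (circles, left) and wt (squares, right), over all kept wells, without the Muc2-high wells, and also without wells with Trpm5 at 50 TPM or more, for the tuft label and the epithelial label. Without the Muc2-high wells the tuft-label sets are at 26.3 to 44.8 TPM for IPMKf/f and 13.8 to 14.5 TPM for wt.

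Epithelial-label and tuft-label wells share the first plate of each plate set, so they were also compared within a plate. The log2 difference of each member, epithelial minus tuft, was averaged over the first plates of a genotype, and the median over members was taken. On the 4 IPMKf/f first plates it was 1.93, from 0.83 without plate set 4 to 3.10 without plate set 2. On the 3 wt first plates it was -3.86. For spread, the median over members was also taken on each plate. These medians had an SD of 2.87 between the 4 IPMKf/f plates and 1.46 between the 3 wt plates. Muc2 was at 259, 2937, 1464 and 0 TPM in epithelial wells of IPMKf/f sets 2, 4, 5 and 7 against 975, 0.174, 239 and 0.207 TPM in the tuft-label wells beside them. In wt sets 1, 3 and 6 it was at 0, 5.63 and 0 TPM in epithelial wells against 663, 92.8 and 495 TPM in tuft-label wells. Without the Muc2-high wells the median difference was 0 on the IPMKf/f plates and -0.04 on the wt plates.

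Over all 856 wells, the genes whose levels most resembled the mean of the 10 members on log2(TPM + 1) were Golm1, a Golgi membrane protein gene, with a Spearman correlation of 0.62, then Krt19 at 0.60, Oit1 at 0.59, Tfcp2l1 at 0.59 and Gas6 at 0.58, followed by Mgam, Hsd11b2, Fos, Dmbt1 and Ugt2b34 between 0.54 and 0.56. Oit1 averaged 526 TPM in the Muc2-high wells and 23.5 TPM in the others. Krt19 averaged 194 TPM against 246 TPM and Dmbt1 8.53 against 124 TPM. Within the 30 Muc2-high wells, in a search made after seeing the 2 patterns, the genes outside the members most like Zg16 were Tppp3 at 0.83, Rhoc at 0.81 and Lgals3 at 0.80. Those most like Reg4 were Best2 at 0.77, Ccl6 at 0.77 and Tmem45b at 0.74.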

How the data were processed

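Single colonic cells had been sorted into plates and sequenced by a modified Smart-seq2. The deposited values are TPM per gene and well, made by the authors. Per the submitters' processing notes, the tools were RSEM 1.3.3 and Bowtie2 2.4.2 with the mm10 build. Annotation and settings: not given in the sources used here. Read depth is unknown from TPM, so genes above 0 stand in for it. Of 1203 columns, 29 near-empty ones were not used. The 92 spike-in rows total 0.

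Wells with at least 1000 genes above 0 were kept. No doublet caller was run, and wells with more than 1 cell were not searched for. Groups come from the genotype and cell type labels, and plate sets from the well titles. TPM was averaged per plate set and label, and log2(mean TPM + 1) was compared with plate sets weighted equally, which understates differences of low genes. The rule of size asks for 10 TPM in a genotype, a 1.5-fold difference and plate-set means that do not overlap. Intervals are exact (Clopper-Pearson) at 95%. No p-values were computed.

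All 10 members are named. Other goblet genes are named by the 10 largest ratios plus Atoh1 and Spdef, with further examples chosen after their values were seen, and genes alike by the 10 highest Spearman correlations. The members and lists were chosen with earlier results of these data known. The computation used Python 3.11.15, pandas 2.3.3, numpy 2.4.6 and scipy 1.17.1, and was tested on simulated data. Alternatives were other pseudocounts, gene filters, Muc2 levels, averaging and scaling, and plate sets or wells left out.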

Additional observations from a re-analysis of the deposited data

Results flagged for a closer look

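Several plate-set means stood apart from the other 3 of their genotype and label. All are IPMKf/f plate sets, but only these were searched, since the search took groups of 4 plate sets and wt has 3. With the tuft label, Zg16 averaged 993 TPM and Tff3 252 TPM in plate set 5. With the epithelial label, plate set 5 averaged 7252 TPM of Zg16, 447.3 TPM of Fcgbp, 330.1 TPM of Clca1 and 1065 TPM of Tff3, and plate set 4 averaged 304 TPM of Reg4. These are 7 of 20 groups of 4 plate sets searched with Dixon's criterion. Its chance rate of about 1 of 20 groups holds for normally distributed values. The values here are means of TPM that 1 well can dominate, so the 7 cannot be set beside that rate. The 4 genes of plate set 5 share 1 epithelial-label well with Zg16 at 101533 TPM, so they are not independent.

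Wells under the filter on detected genes, which the comparisons do not use, also held the mucin. Of 318 such wells, 16 had Muc2 at 500 TPM or more: 6 IPMKf/f and 5 wt wells with the tuft label, and 3 IPMKf/f and 2 wt wells with the epithelial label. The 2 wt epithelial wells read 21853.9 TPM of Muc2 with 495 genes above 0 and 10629.6 TPM with 844 genes. Both also held Agr2, at 306 and 1006 TPM, and Klk1, at 598 and 862 TPM. Zg16 was at 0 in both.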

How the results depend on the processing

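The number of Muc2-high wells depended on the choices in each group. In IPMKf/f tuft-label wells it was 5, and 9 at a Muc2 level of 100 TPM, 9 with a filter of 500 genes, 9 with TPM rescaled without Rn18s-rs5 and mitochondrial genes, and 11 with no filter on genes. In wt epithelial wells it was 0, and 1 with the filter of 500 genes and 2 with none. In wt tuft-label wells it was 18, and 12 with a filter of 2000 genes and 23 with none. In IPMKf/f epithelial wells it was 7, and 6 with a filter of 2000 genes and 10 with none. The median log2 difference of the members between genotypes (IPMKf/f minus wt) under the tuft label was -1.34, -0.50 with the filter of 500 genes, -0.07 with one of 2000, -0.03 for the mean of log2 values, -2.03 to -0.36 when a plate set was left out, 1.03 without the Muc2-high wells and 0.83 when wells with Trpm5 at 50 TPM or more were left out as well. The number meeting the rule was 0, and 1 without the Muc2-high wells, also when wells with Trpm5 were left out, with 0 to 2 when a plate set was left out. Leaving out set 1 gave Mptx1, set 5 gave Zg16 and Tff3, all lower, and set 6 gave Klk1, higher. Under the epithelial label the median was 4.58, and 1.11 for the mean of log2 values, 0.35 without the Muc2-high wells and 0.25 when wells with Trpm5 were left out as well. The number was 5, and 3 with the filter of 500 genes, 2 without the Muc2-high wells and 0 when wells with Trpm5 were left out as well. When only the wells with Trpm5 at 50 TPM or more were left out it was 4. Leaving out plate set 5 ended the call of Clca1, leaving out set 3 added Fcgbp and Tff3, and leaving out set 7 added Muc2 and Spink4. The epithelial minus tuft median on wt first plates was -3.86, and -5.73 at a pseudocount of 0.1 TPM, -2.18 at 10 TPM and -0.041 without the Muc2-high wells. The cause of these shifts was not tested. Zg16, Clca1, Agr2, Klk1 and Mptx1, which met the rule under the epithelial label with all sets, stayed higher under every alternative run. But Zg16, Clca1 and Mptx1 were at 0 TPM in each wt set, so leaving out wells or sets could not turn them lower. The rule itself was lost by Agr2 and Klk1 with the filter of 500 genes. Agr2 also lost it when only the wells with Trpm5 at 50 TPM or more were left out. Zg16, Clca1 and Mptx1 lost it without the Muc2-high wells. Members that met the rule only with a set left out did change sign elsewhere. Under the tuft label Mptx1 was at -2.14 without set 1 and 0.43 with all sets, and Zg16 and Tff3 were at 1.71 and 1.84 without the Muc2-high wells. Under the epithelial label Muc2, Spink4, Fcgbp and Tff3 were at -0.27, -2.10, -1.03 and -0.28 without those wells. In that comparison wt set 3 averaged 78.0 TPM of Spink4, 16.8 TPM of Fcgbp and 78.3 TPM of Tff3. A single well of that set held these genes at 1014, 218 and 1018 TPM. The choices on Trpm5 and on no filter of wells or genes were made after seeing the data. No paired analysis was possible because no plate set holds both genotypes and no replicate numbers are shared.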
